A study of Homo sapiens with 9 samples.

Results

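The genes described here are 60 signalling and transcription factor genes of epithelial-mesenchymal transition (EMT): members of the TGF-β and BMP, Wnt and Hippo pathways and transcription factors that act with them. They were chosen by name, from pathway membership and with earlier results of these data known, out of 20162 protein-coding genes of the nuclear chromosomes. A peak was assigned to a gene when it lay on the gene's strand and its centre fell inside the gene's span. By that rule 43 of the 60 genes held at least 1 QKI-5 peak, and together they held 334 of the 24037 peaks in the deposited list. QKI-5 is the nuclear isoform of Quaking, an RNA-binding protein of the STAR family that recognises ACUAAY in RNA, a motif read as ACTAAC or ACTAAT in the genome.

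The cells were mesHMLE, a mesenchymal line derived from HMLE human mammary epithelial cells by TGF-β1 treatment at 2.5 ng/ml for at least 14 days and then grown with no further TGF-β1. RNA-protein contacts were fixed with ultraviolet light at 600 mJ/cm2, and HITS-CLIP, in which an antibody recovers the protein and the RNA fragments bound to it are sequenced, gave 7 libraries from QKI-5 precipitation and 2 from size-matched input. Of the 7, 3 came from the gel region of the QKI monomer, 3 from that of the dimer and 1 more from the dimer with another reverse transcriptase (SuperScript IV), all numbered as technical replicates of a single line. The 7 were pooled before peaks were called against the input, so no value below has a spread between replicates, no test between groups was possible, and the depth of each library is not given by the list. Each interval given is a Wilson interval at 95% confidence, which takes in counting error alone. Peaks of the same gene often lie in runs and are not independent, so intervals on shares of peaks are too narrow. Height is the signal the authors wrote for each peak, without a unit, and it is compared only within the list. RNA levels of the 60 genes were not analysed here, the cell label was not checked against markers, and the part of RNA abundance in any count below was not tested.

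TGF-β ligands are held latent in the matrix by binding proteins and, once released, bind paired serine/threonine kinase receptors that phosphorylate SMAD proteins. SMADs move to the nucleus and act with other transcription factors, among them the ZEB, SNAI and TWIST families, which repress epithelial genes in EMT. In the Wnt pathway, Frizzled and LRP receptors signal through Dishevelled (DVL) to release β-catenin from a complex of APC, AXIN and kinases, and β-catenin then acts through TCF and LEF factors. In the Hippo pathway the kinases STK3 and LATS hold YAP1 and WWTR1 (TAZ) in the cytoplasm, and when the kinases are inactive these co-activators bind DNA through TEAD factors.

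Peaks were found in every gene group. At least 1 peak was found in 43 of the 60 genes (71.7%, interval 59.2 to 81.5%), against 23.6% of all protein-coding genes. The choice of the 60 with earlier results known bears on this difference. All 8 Hippo genes held peaks (85 in all), as did 5 of 7 TGF-β and BMP receptor genes (22 peaks), 4 of 6 SMAD genes (16), 4 of 5 SMAD ubiquitin ligases and co-repressors (18), 5 of 6 NFI, NFYA and RUNX1 genes (42), 4 of 7 EMT factors (22), 4 of 7 Wnt ligands and receptors (59), 4 of 5 cytoplasmic Wnt proteins (40) and 2 of 4 TCF and LEF genes (22). The latent TGF-β binding proteins held 6 peaks in 2 of 3 genes. The TGF-β ligands held 2 peaks in 1 of 2 genes, both outside that gene's protein-coding transcripts. The genes with a peak had a median of 4, and all protein-coding genes with a peak had a median of 2. Exactly 1 peak was found in 9 of the 60, 5 or more in 21 (35%, against 6.29% of all protein-coding genes) and 10 or more in 9 (15%, against 2.79%).

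**Figure D1:**
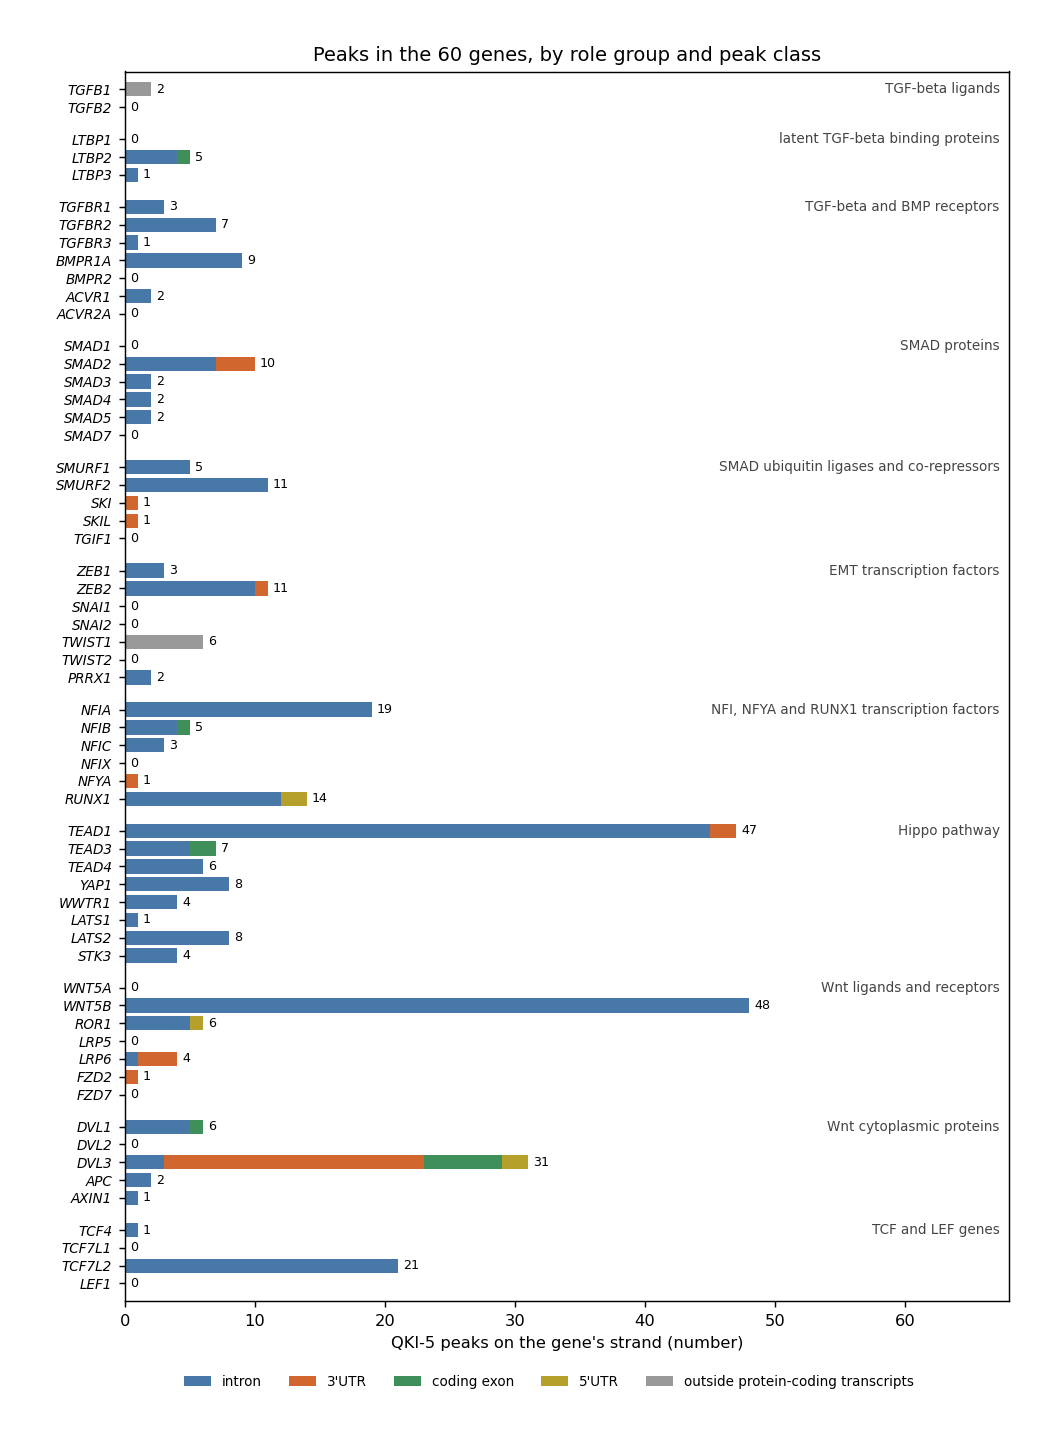
Number of QKI-5 peaks (horizontal axis) in each of the 60 genes, ordered by role group and coloured by the class of the peak centre, with the total beside each bar. WNT5B with 48, TEAD1 with 47 and DVL3 with 31 stand apart, and 17 genes are at 0.

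WNT5B with 48 peaks, TEAD1 with 47 and DVL3 with 31 together held 126 of the 334 (37.7%). Peaks are counted here as listed, and many adjoin one another: merging those within 50 nt left 245 of the 334. Merged counts for single genes are not given. TCF7L2 followed with 21, NFIA with 19, RUNX1 with 14, ZEB2 and SMURF2 with 11 each and SMAD2 with 10. Long genes offer more sequence in which a peak can fall, and the 60 genes were long, with a median span of 101 kb against 27.2 kb for all protein-coding genes. Among genes of 30 to 100 kb, 13 of 19 of the set held a peak (68.4%, interval 46.0 to 84.6%), against 33.2% of all genes of that span. Among genes of 100 to 300 kb it was 18 of 23 (78.3%, interval 58.1 to 90.3%), against 48.4%. The counts were 5 of 6 at 10 to 30 kb (background 16.5%), 6 of 7 at 300 kb or more (background 39.8%) and 1 of 5 under 10 kb (background 3.98%). Within the set, genes with a peak had a median span of 117 kb and genes without one a median of 78.0 kb.

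**Figure D2:**
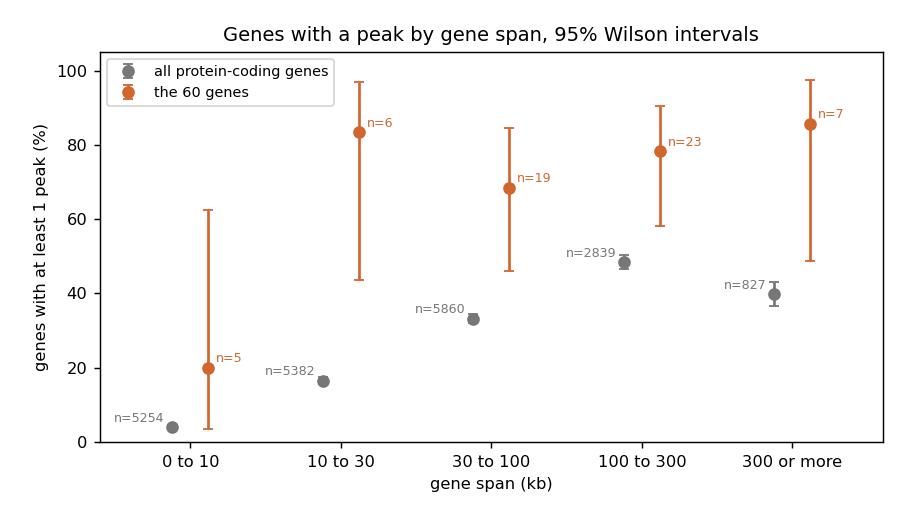
Share of genes with at least 1 peak (vertical axis, percent) in 5 classes of gene span (horizontal axis, kb), for all protein-coding genes (grey) and for the 60 genes (orange). Points are shares, bars are 95% Wilson intervals and n is the number of genes; the orange point lies above the grey one in each class, and under 10 kb its interval includes the grey point.

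Most peaks were intronic. By their centres, 277 of the 334 peaks lay in introns (82.9%, interval 78.5 to 86.6%), 33 in 3′UTRs, 11 in coding exons, 5 in 5′UTRs and 8 outside every protein-coding transcript of the gene. Across all protein-coding genes the intronic share was 85.9% and the 3′UTR share 8.54%. Without WNT5B, TEAD1 and DVL3 the intronic share was 87.0% and the 3′UTR share 5.29%. Introns made up 92.7% of the length of the 60 genes. Per 100 kb of each class, the 60 genes held 3.28 peaks in introns, 14.6 in 3′UTRs and 8.96 in coding exons, against 1.53, 4.50 and 1.49 over all protein-coding genes. DVL3 held 20 of the 33 3′UTR peaks and 6 of the 11 coding peaks. The 33 peaks lay in 226 kb of 3′UTR, whereas the whole last exon of DVL3, coding part included, has 3296 nt. The 3′UTR and coding-exon densities thus rest in large part on DVL3, and they were not computed without it. No higher density outside DVL3 is read from them. The other 3′UTR peaks were in SMAD2 and LRP6 with 3 each, TEAD1 with 2, and ZEB2, SKI, SKIL, NFYA and FZD2 with 1 each, so that 9 of the 60 genes held one (15%, against 4.23% of all protein-coding genes). That contrast includes the higher share of the set with any peak. Among genes with a peak, 9 of 43 in the set held one in a 3′UTR, against 852 of 4750 over all protein-coding genes.

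Peak heights in the set followed those of the whole list. The median height was 23 (quartiles 17 and 30, range 5 to 582), and the median of all peaks in protein-coding genes was also 23 (quartiles 18 and 32). A height of 100 or more was reached by 11 of the 334 peaks (3.29%), against 3.03% of all peaks in protein-coding genes. Of these 11, 7 lay in the 3′UTR of DVL3, 2 in introns of TEAD1, 1 in an intron of TEAD3 and 1 in the 3′UTR of FZD2. In the other genes heights stayed under 100, with the tallest peaks at 95 in WNT5B, 77 in NFIA, 70 in DVL1, 62 in TCF7L2 and 60 in ZEB2. The 7 tall DVL3 peaks adjoin one another over chr3:183888619-183889695. They fall into 1 region when peaks within 50 nt are merged, so they are not separate sites by that rule.

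**Figure D3:**
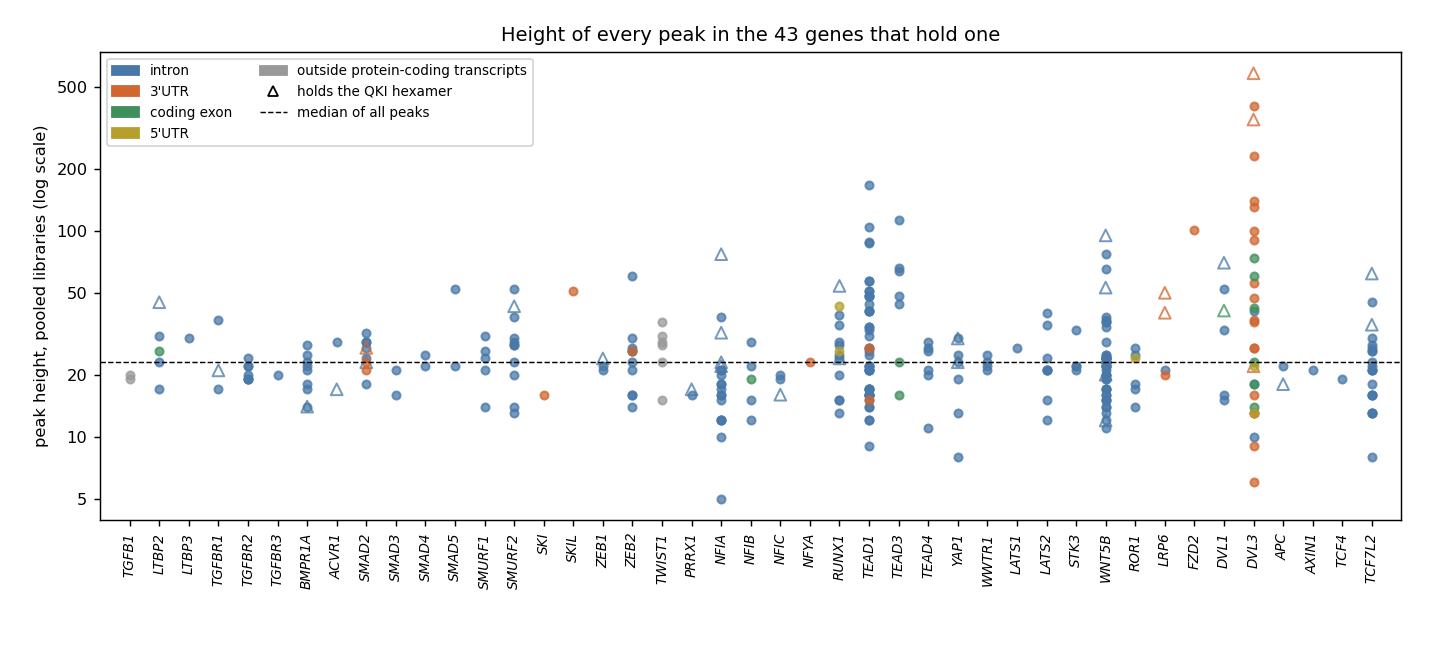
Height of each of the 334 peaks (vertical axis, log scale, signal of the pooled libraries) in the 43 genes with a peak, coloured by class; open triangles mark peaks that hold ACTAAC, and the dashed line is the median height of all peaks, 23. Most genes lie within a narrow band about the line, and the peaks at 100 or above are in DVL3, TEAD1, TEAD3 and FZD2.

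The QKI hexamer was found in about the same share of these peaks as elsewhere. ACTAAC lay on the peak's strand in 32 of the 334 peaks (9.58%, interval 6.87 to 13.2%), against 10.5% of all peaks in protein-coding genes. Windows of the same length 500 nt to the 5′ side held it in 0.599% of cases and those 500 nt to the 3′ side in 1.2%, and the opposite strand of the same peaks in 0.299%. With ACTAAT counted as well, the share was 12.3% in the set and 14.3% in all peaks of protein-coding genes. Peaks with ACTAAC were found in 18 of the 60 genes (30%), against 7.83% of all protein-coding genes, and among genes with a peak the shares were 41.9% and 33.2%. NFIA and WNT5B held 4 such peaks each, DVL3 held 3, and DVL1, LRP6, RUNX1, SMAD2, TCF7L2 and YAP1 held 2 each. In 24 of the 32 peaks the hexamer's centre lay within 25 nt of the summit, with a median distance of 16.5 nt. These peaks were picked for holding the hexamer, and peak width limits the distance. The share that width alone gives was not computed, so no centring is read from it. Among peaks at or above 2 times the median height of the list, 9 of 42 held ACTAAC (21.4%, interval 11.7 to 35.9%), against 20.1% of such peaks in all protein-coding genes. Taller peaks were also wider, and the 42 had a median width of 97.5 nt against 63 nt for all 334.

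The following windows show the tallest ACTAAC peak of each of the 9 genes with the most such peaks, read 5′ to 3′ on the gene's strand of GRCh37 (hg19), with ACTAAC in capitals and 12 nt on either side. They are shown as examples of the 32 peaks of the set in which the QKI hexamer was found.
NFIA, intron, chr1:61587931-61587960, plus strand: tcacatgtgcaaACTAACaagagaagatgg
WNT5B, intron, chr12:1687387-1687416, plus strand: acattccacagtACTAACattttcaatggc
DVL3, 3′UTR, chr3:183889042-183889071, plus strand: tcatctgcccctACTAACcatccccctgcc
DVL1, intron, chr1:1274355-1274384, minus strand: gccattaacacgACTAACagcctgcgctct
LRP6, 3′UTR, chr12:12273584-12273613, minus strand: agccttcagttaACTAACatttgagggcca
RUNX1, intron, chr21:36194373-36194402, minus strand: tggtcacccctaACTAACattctcaggaaa
SMAD2, 3′UTR, chr18:45365973-45366002, minus strand: catgtgattctcACTAACatatctccttcc
TCF7L2, intron, chr10:114919000-114919029, plus strand: tatgagcttctaACTAACtcctaacagctc
YAP1, intron, chr11:102078893-102078922, plus strand: agagaattatttACTAACcattgtctgtgt
In SMAD2 the hexamer's centre was 0.5 nt from the summit, in TCF7L2 2.5 nt, in LRP6 5.5 nt and in NFIA 6.5 nt. It was further away in YAP1 (13.5 nt), DVL3 (19.5 nt), WNT5B (22.5 nt), RUNX1 (25.5 nt) and DVL1 (32.5 nt).

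**Figure D4:**
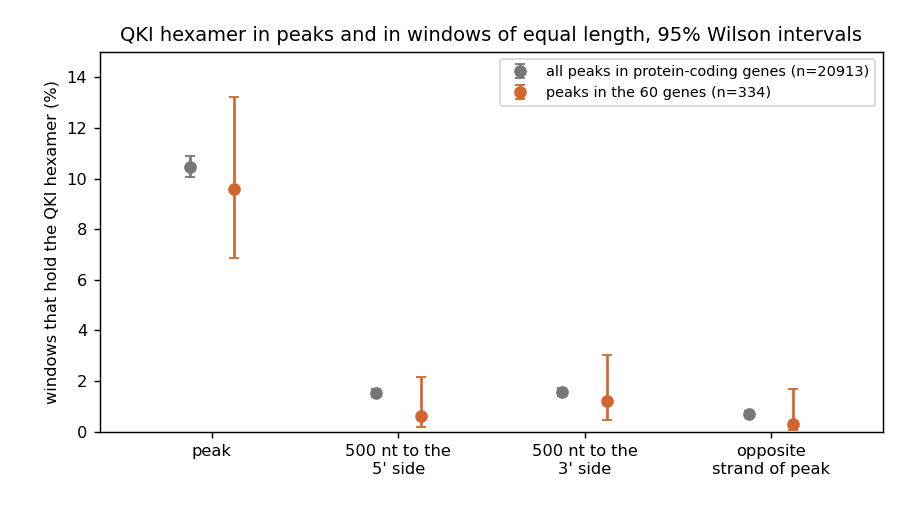
Share of windows that hold ACTAAC (vertical axis, percent) in the peaks, in windows of equal length 500 nt to either side and on the opposite strand of the peaks, for all peaks in protein-coding genes (grey) and for those in the 60 genes (orange). Points are shares and bars 95% Wilson intervals; the peaks are at 10.5% and 9.58% and every other window is under 2%.

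The tallest peaks of the set were in DVL3, which encodes one of the Dishevelled proteins that pass the Wnt signal from the receptors to the cytoplasm. DVL3 spans 18.2 kb and held 31 peaks, 20 in the 3′UTR, 6 in coding exons, 2 in the 5′UTR and 3 in introns, with a lowest height of 6, a median of 36 and a highest of 582. A run of 26 peaks, each centre within 1000 nt of the next, covered chr3:183887597-183891259 (3663 nt), from just before exon 14 to near the end of the last exon. In the coding part of the last exon peaks stood at 60, 18 and 74, and those that followed in the 3′UTR stood at 232, 404, 582, 347, 131, 140 and 100 in turn. The other 13 peaks of the 3′UTR were lower, from 6 to 90. The tallest, chr3:183889034-183889169, was higher than 99.8% of all peaks in the list, and it and the peak of 347 beside it each held 1 ACTAAC. The peaks of 404 and 232 held none. Only 3 of the 31 peaks held ACTAAC (9.68%).

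DVL1, a second Dishevelled gene, held 6 peaks, all within 488 nt at chr1:1274251-1274738, with heights of 15 to 70 and a median of 37. They covered part of exon 11 and the 633-nt intron that follows it, and the intronic peaks of 70 and 52 lay 314 and 240 nt upstream of the 132-nt exon 12. The peak in exon 11 (height 41) and the peak of 70 held ACTAAC. In DVL3 the equal-length exon 12, which matched that of DVL1 at 66.7% of positions, had small peaks of 10 and 18 at 3 and 52 nt on its downstream side. DVL2, the third Dishevelled gene, held no peak and spans 9.18 kb. APC, the scaffold of the β-catenin destruction complex, held 2 peaks of 22 and 18, the lower of which held ACTAAC and lay 3472 nt upstream of the canonical transcript, in an intron of a longer one. AXIN1, another scaffold of that complex, held a single intronic peak of 21.

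WNT5B, which encodes a secreted Wnt ligand, held the most peaks of the 60 genes, 48, and none lay within its canonical transcript. That transcript spans 18.0 kb, whereas the gene's annotated span is 117 kb because other protein-coding transcripts start far upstream. All 48 peaks lay in introns of those longer transcripts, between 97.3 and 18.5 kb upstream of the canonical start, and no other gene was annotated there on the same strand. Heights ran from 11 to 95 with a median of 22. The tallest peak, chr12:1687374-1687450, held the ACTAAC shown above, and the next were 77, 65 and 53. Peaks came in runs: 13 within 3522 nt at chr12:1714362-1717883 (heights 13 to 36), 10 within 3020 nt at chr12:1667955-1670974 (12 to 65), and runs of 5, 4 and 3. A 94-nt peak of height 20 in the first of these runs held 6 ACTAAC hexamers, the most of any peak in the set. Overlapping copies, 5 in all, fill most of its first 30 nt, which are shown because they are a short tandem repeat of the hexamer's letters.
WNT5B, intron, chr12:1716098-1716127, plus strand: aACTAACTAACTAACTAACTAACttactat
Of the other ligand and receptor genes, WNT5A, a ligand closely related to WNT5B, held no peak. ROR1, a receptor for non-canonical Wnt ligands, held 6 peaks with heights of 14 to 27 and a median of 21, of which 1 was in the 5′UTR and 5 in the first intron of 234797 nt. LRP6, the Wnt co-receptor, held 4 peaks of 50, 40, 21 and 20. The peaks of 50, 40 and 20 lay within a stretch of 508 nt of its 3′UTR, and the upper pair each held ACTAAC. LRP5, its relative, held none. FZD2, a Frizzled receptor with a single exon, held 1 peak of 101 in its 3′UTR, and FZD7, another Frizzled receptor gene with a single exon, held none. The 30 nt around the FZD2 summit occur 4047 times in the genome. The authors filtered alignments on mapping quality, and how surely the reads of this peak were placed was not tested.

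**Figure D5:**
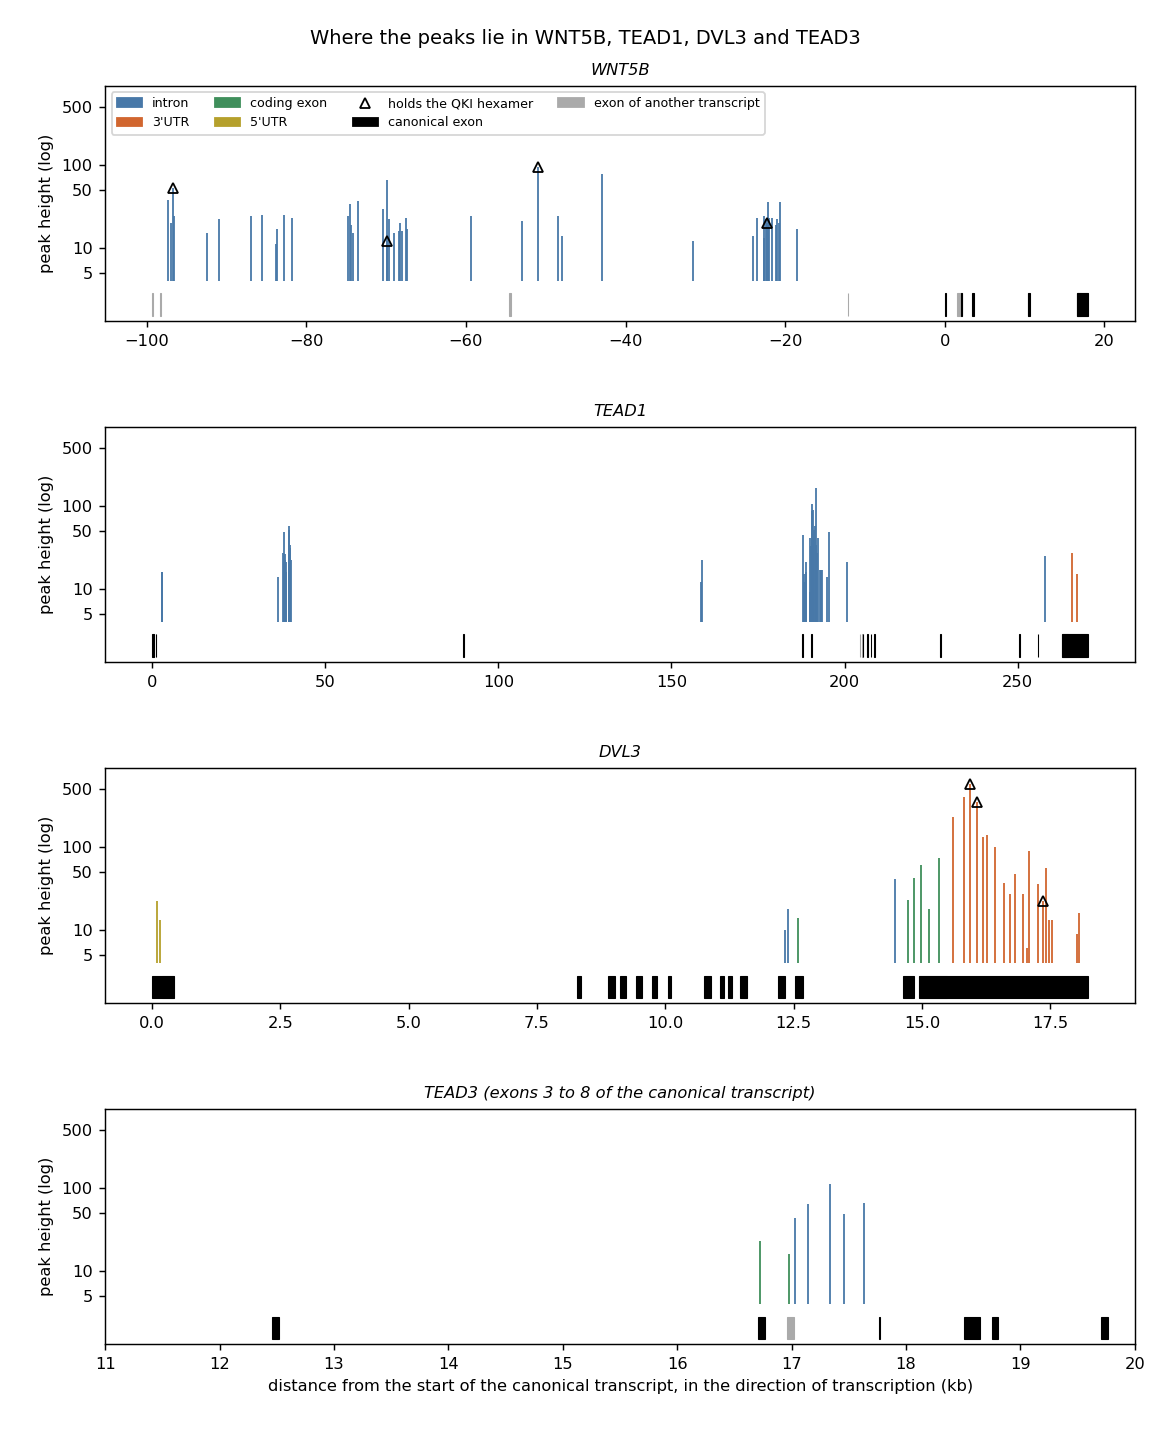
Peaks of WNT5B, TEAD1, DVL3 and part of TEAD3 as vertical lines whose top is the height (vertical axis, log scale), at their distance in kb from the start of the canonical transcript in the direction of transcription (horizontal axis, a scale of its own in each panel). Boxes below are exons of the canonical transcript (black) and of other protein-coding transcripts (grey), and open triangles mark ACTAAC: WNT5B peaks lie upstream of every black box, TEAD1 peaks form groups around exon 5 and in intron 2, DVL3 peaks crowd the last exon and TEAD3 peaks run from exon 4 to just before exon 5.

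Every one of the 8 Hippo genes of the set held peaks, as did 14 of 20 further Hippo genes counted below. Both lists were written with results of these data known, so the 8 do not stand for the pathway. TEAD1, TEAD3 and TEAD4 encode DNA-binding partners of YAP1 and WWTR1, and TEAD1 held the most peaks of the 8 genes. It held 47 peaks over 270 kb, 45 in introns and 2 in the 3′UTR, with heights from 9 to 166 and a median of 25. Intron 2 held 17 of them, intron 4 held 8 and intron 5 held 17. A run of 17 peaks covered chr11:12885990-12889379 (3390 nt), which includes the 63-nt exon 5. There a peak of 33 crossed the start of exon 5 and one of 87 crossed its end. Peaks of 104 and 166 had their centres 225 and 1175 nt downstream of that exon. A further run of 14 peaks in intron 2 covered 2169 nt at chr11:12733825-12735993, with heights from 16 to 57. None of the 47 TEAD1 peaks held ACTAAC and 3 held ACTAAT. The upper bound of 7.56% on the ACTAAC share treats the 47 as independent, although many lie in runs, so it is too low.

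TEAD3 showed a compact group of peaks at a related exon. Its 7 peaks, with heights from 16 to 113 and a median of 48, all lay within 1011 nt at chr6:35447152-35448162. In this stretch the annotation places 2 exons of 63 nt, the canonical exon 4 (chr6:35448089-35448151) and a further exon (chr6:35447837-35447899), and each of the 2 protein-coding transcripts of TEAD3 holds one of them and skips the other. Peaks of 23 and 16 had their centres within these exons. Peaks of 44, 64 and 113 lay 14, 120 and 316 nt downstream of the second exon, and those of 48 and 66 lay 309 and 132 nt upstream of the next exon, of 12 nt. None held ACTAAC or ACTAAT. TEAD1 exon 5 matched the second TEAD3 exon at 77.8% of positions and the canonical exon 4 at 60.3%, and the pair of TEAD3 exons matched each other at 63.5%. The 65-nt exon 4 of TEAD1 had 3 peaks within 500 nt, whereas the exons that matched it in TEAD3 (exon 3, 75.4%) and TEAD4 (exon 4, 76.9%) had none. Windows of 30 nt centred on the tallest TEAD1 and TEAD3 peaks are shown because they are the tallest peaks of the set without the hexamer outside a 3′UTR.
TEAD1, intron 5, chr11:12887620-12887649, plus strand: gcagcatgctggctcgctcgcacgtgtggc
TEAD3, intron 4, chr6:35447534-35447563, minus strand: gtgggcagggaggaggccccggggctactg
TEAD4 held 6 peaks, all in intron 3, with heights of 11 to 29 and a median of 23.5. Of these, 5 lay within 475 nt at chr12:3112226-3112700, 7506 to 7931 nt upstream of exon 4. Its own 63-nt exon 5, which matched TEAD1 exon 5 at 71.4% of positions, had no peak within 500 nt. The comparison of exons between related genes was added after the peaks had been seen.

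The co-activator genes held intronic peaks of 30 or lower. YAP1 held 8, all intronic, with heights of 8 to 30 and a median of 23, and 2 of them held ACTAAC, one of which (height 23) held it 2 times. WWTR1 held 4 intronic peaks of 25, 23, 22 and 21, the tallest of which lay upstream of the canonical transcript. LATS2, a kinase that phosphorylates YAP1, held 8 intronic peaks with heights of 12 to 40 and a median of 21. Intron 2 held 4 of them and the 1575-nt intron 5 held the other 4, of which peaks of 12 and 15 lay 78 and 135 nt downstream of the 583-nt exon 5 and peaks of 40 and 24 lay 201 and 300 nt upstream of exon 6. LATS1, the related kinase, held a single peak of 27, 262 nt upstream of its own 583-nt exon 5, which matched that of LATS2 at 73.6% of positions. STK3, which activates the LATS kinases, held 4 peaks of 33, 22, 22 and 21, all in intron 6.

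TCF7L2, which encodes a DNA-binding partner of β-catenin, held 21 of the 22 peaks of the TCF and LEF group, all intronic, with heights of 8 to 62 and a median of 21. Intron 5, of 101057 nt, held 11 of them. The tallest, chr10:114918934-114919043, lay 512 nt downstream of exon 13 and held the ACTAAC shown above. The next tallest, of 45, lay 252 nt upstream of the same exon, which has 51 nt and which 9 protein-coding transcripts hold and 9 skip. The TCF4 gene of the set encodes an E-protein of the helix-loop-helix class, not the factor long called TCF4 in the Wnt literature, and held 1 intronic peak of 19. TCF7L1 and LEF1 held none.

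The receptors held only intronic peaks, all under a height of 40. BMPR1A, a type I BMP receptor, held 9, every one in its first intron of 81945 nt, with heights of 14 to 28 and a median of 21. TGFBR2, the type II TGF-β receptor, held 7 with heights of 19 to 24 and a median of 20, 3 in intron 3 and 4 in intron 5. TGFBR1, the type I receptor, held 3 peaks of 37, 21 and 17 in the 23552 nt of intron 1, and the peak of 21 held ACTAAC. ACVR1, an activin and BMP receptor, held 2 peaks of 29 and 17, and the lower held ACTAAC. TGFBR3, the co-receptor betaglycan, held 1 peak of 20. Heights thus overlapped across the 5 receptor genes. BMPR2 and ACVR2A held no peak.

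Among the binding proteins that keep TGF-β latent, LTBP2 held 5 peaks of 45, 31, 26, 23 and 17. The tallest, chr14:75063894-75063963, was intronic and held ACTAAC, and the peak of 26 lay within the 123-nt exon 25, which 2 annotated transcripts hold and 1 skips. LTBP3 held 1 peak of 30 that crossed the downstream edge of the 17-nt exon 9. LTBP1 held none over 453 kb. Both peaks assigned to TGFB1, of 20 and 19, lay outside its protein-coding transcripts, 4364 and 13522 nt downstream of the nearest coding-transcript exon, and 4 peaks lay on the opposite strand of the same span. TGFB2 held none.

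SMAD2, a SMAD activated by TGF-β receptors, held 10 of the 16 SMAD peaks, with heights of 18 to 32 and a median of 25.5. Of these, 7 were intronic, 5 of them in intron 2, and 3 lay within a stretch of 644 nt of the 3′UTR, in a last exon annotated at 32994 nt, where the peak of 27 held the ACTAAC shown above. SMAD3, which is activated by the same receptors, held 2 intronic peaks of 21 and 16. SMAD4, the partner shared by the activated SMADs, held 2 of 25 and 22, the former 198 nt downstream of exon 1, and 1 of the 2 also lay in a readthrough gene. SMAD5, a SMAD of the BMP branch, held 2 of 52 and 22. SMAD1 and the inhibitory SMAD7 held none.

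The ubiquitin ligases that target SMADs and receptors carried more peaks than the co-repressors, and their genes are longer. Spans were 117 kb for SMURF1 and 120 kb for SMURF2, against 82.8 kb for SKI, 39.5 kb for SKIL and 48.4 kb for TGIF1. The part of span in the counts was not tested. SMURF2 held 11, all intronic, with heights of 13 to 52 and a median of 28, and 10 of them lay in its first intron of 55188 nt. SMURF1 held 5 of 31, 26, 24, 21 and 14, of which 4 lay in its first intron of 81888 nt, while the tallest lay 136 nt downstream of exon 15. Both first introns end at an exon of 39 nt. One SMURF2 peak, of 43, held ACTAAC. The co-repressor genes SKI and SKIL each held 1 peak in the 3′UTR, of 16 and 51, and the 30 nt around the SKIL summit occur 30 times in the genome. TGIF1, another co-repressor, held none.

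Among the EMT transcription factors, ZEB1, ZEB2 and PRRX1 held peaks within their transcripts, and SNAI1, SNAI2 and TWIST2 held none. ZEB2 held 11 peaks, 10 in introns and 1 in the 3′UTR, with heights of 14 to 60 and a median of 26. The tallest, chr2:145271514-145271572, lay 179 nt upstream of a 2413-nt exon of a non-canonical transcript, 8 of the 10 lay in canonical intron 2 and none held ACTAAC. One ZEB2 peak of 26 also lay in a pseudogene annotated on the same strand. ZEB1 held 3 peaks of 24, 22 and 21, all in intron 1 (141744 nt), and that of 24 held ACTAAC. PRRX1, a homeobox factor, held 2 peaks of 17 and 16 side by side in intron 1, and the taller held ACTAAC. SNAI1 spans 5.91 kb, SNAI2 4.14 kb and TWIST2 75.6 kb. TWIST1 was assigned 6 peaks of 36, 31, 29, 28, 23 and 15, but its only protein-coding transcript spans 2.17 kb and none of the 6 lay in it. They lay 6754 to 36839 nt downstream of its nearest exon, in a gene span of 96.6 kb.

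Of the NFI factors, which bind DNA as dimers, NFIA held 19 intronic peaks, 18 of them in intron 2 (188839 nt), with heights of 5 to 77 and a median of 18. A run of 7 within 826 nt at chr1:61587886-61588711 included the tallest, and 4 of the 19 peaks held ACTAAC, at heights of 77, 32, 23 and 22. NFIB held 5 peaks of 29, 22, 19, 15 and 12, and the peak of 19 crossed the upstream edge of an 89-nt coding exon (chr9:14102421-14102509) that 9 protein-coding transcripts hold and 7 skip. NFIC held 3 of 20, 19 and 16, the lowest of which held ACTAAC, and NFIX held none. NFYA, a subunit of the CCAAT-binding factor NF-Y, held 1 peak of 23 in its 3′UTR. RUNX1, a Runt-domain factor, held 14 peaks with heights of 13 to 54 and a median of 25.5, of which 12 were intronic and 2 lay in 5′UTR of transcripts other than the canonical one. The tallest, chr21:36194327-36194446, held 2 ACTAAC hexamers.

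Intronic peaks of the set lay far from exons more often than peaks elsewhere did. Of the 277, 29 had their centre within 250 nt of an exon (10.5%, interval 7.39 to 14.6%), against 11.6% of intronic peaks in all protein-coding genes. More than 5000 nt from an exon lay 162 of the 277 (58.5%, interval 52.6 to 64.1%), against 32.8%, and the median distances were 7680 and 2071 nt. Without WNT5B, TEAD1 and DVL3 the share was 56.9%. The longer span of the set moves with this, and its part was not tested. Many of the 277 lay in runs within the same introns, so their intervals are too narrow. Of the 29 near peaks, 22 lay downstream of their exon and 7 upstream (24.1%, interval 12.2 to 42.1%), against 42.4% upstream over all protein-coding genes. These 29 came from 13 genes, with 5 in TEAD1, 4 each in DVL1 and TCF7L2 and 3 each in TEAD3, LATS2 and DVL3, so they are not independent. Exons that some protein-coding transcripts hold and others skip contained the centre of, or lay within 250 nt of, 9 of the 334 peaks (2.69%, interval 1.42 to 5.04%), against 4.92% of all peaks in protein-coding genes. The 9 were in LTBP2, NFIB, TEAD3 (4 peaks) and TCF7L2 (3). In TCF7L2 a peak of 16 crossed the end of a 141-nt exon (chr10:114849159-114849299) held by 2 transcripts and skipped by 11, and a pair of peaks of 13 each lay 109 and 168 nt downstream of the 73-nt exon 14 (chr10:114919679-114919751), held by 11 and skipped by 7. Another peak of the same gene lay within 1000 nt for 62.9% of the 334 peaks, against 64% over all protein-coding genes.

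No peak was found in 17 of the 60 genes: TGFB2, LTBP1, BMPR2, ACVR2A, SMAD1, SMAD7, TGIF1, SNAI1, SNAI2, TWIST2, NFIX, WNT5A, LRP5, FZD7, DVL2, TCF7L1 and LEF1. Of these, BMPR2 had 1 peak on the opposite strand. Over all 60 genes the opposite strand held 8 peaks in 5 genes, against 334 on the gene's own strand. The 30 nt around the summit occurred once in the genome for 319 of the 334 peaks (95.5%), against 92.6% of all peaks in protein-coding genes. Besides FZD2 and SKIL, summits in repeated sequence were those of the LRP6 intronic peak with 92134 copies, an NFIC peak of height 19 with 25, a TEAD1 peak of height 22 with 16, the lone TCF4 peak with 5, a TWIST1 peak of height 15 with 3 and a RUNX1 peak of height 20 with 2. In WNT5B the summits of peaks of height 36, 13 and 24 had 606, 597 and 26 copies, and the other 45 had 8 or fewer.

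Other genes of the same pathways were counted from lists that were likewise written with results of these data known. Peaks were found in 19 of 33 further Wnt genes (95 peaks), 14 of 20 further Hippo genes (99), 5 of 18 further TGF-β and BMP genes (8) and 7 of 21 further transcription factors (35), or 45 of 92 in all (48.9%, interval 38.9 to 59.0%), against 23.6% of all protein-coding genes. Gene span was not matched in this comparison, and its part was not tested. They held 237 peaks with a median height of 22. The most peaks were in FRMD6, a membrane-linked protein upstream of LATS, with 46 (heights 5 to 124, median 21.5, 44 intronic), followed by the kinase gene CSNK1A1 with 21 (7 to 73, median 32) and GSK3B with 16 (12 to 44, median 24). PTPN14, a phosphatase that binds YAP1, held 15 (16 to 49, median 24) and RUNX2 held 15 (12 to 46, median 19). ACTAAC lay in 26 of the 237 peaks (11%, interval 7.60 to 15.6%), against 10.5% of all peaks in protein-coding genes.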

How the data were processed

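QKI-5 HITS-CLIP was carried out on mesHMLE cells (7 immunoprecipitation and 2 size-matched input libraries). Per the methods and the labels, the authors trimmed reads with cutadapt 1.3 and mapped them to hg19 with TopHat2 2.0.10. They collapsed duplicates by molecular barcode and filtered alignments on mapping quality with SAMtools. They then pooled the immunoprecipitates and called peaks per strand against input with MACS2 2.1.1.20160309. The deposited signal is one whole-number height for each peak, taken over all precipitates together, and the depth of single libraries is unknown. Peaks were counted as listed. Merging those within 50 nt left 245 of the 334, and whether adjoining peaks are parts of 1 broader region was not tested further.

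The 60 genes and all lists were chosen with earlier results of these data known. Peaks were placed by their centre in gene spans of GENCODE release 44 lifted to GRCh37 (hg19) and classed over the protein-coding transcripts in the order 5′UTR, 3′UTR, coding exon, intron. The canonical transcript is the one tagged so in the annotation. The 18 mitochondrial peaks were left out, and the file held 0 columns of other series. All 60 genes are named, with every height for 1 to 5 peaks and otherwise the lowest, median and highest, and of the other pathway genes the 5 with most peaks. Copies of the 30 nt around a summit were counted on both strands of the genome, and exons of equal length in related genes were compared without gaps. These 2 steps, and the windows of TEAD1, TEAD3 and the WNT5B repeat, were chosen after values were seen. Alternatives covered placement, height, merging, gene model, strand, motif and distance. Python 3.11.15, numpy 2.4.6, scipy 1.17.1, pysam 0.24.0, matplotlib 3.10.9 and samtools 1.23.1 were used, and the scripts were tested on simulated data.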

Additional observations from a re-analysis of the deposited data

How the results depend on the processing

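No paired analysis was possible because the libraries were pooled into 1 list before peaks were called, and for the same reason no library could be left out and no result comes from a test. Placing peaks by any overlap or by the summit left 43 genes and 334 peaks, and of 52 values recomputed in all, 37 stayed within the interval of the reported value or within 1.5 times a count. With the canonical transcript alone, 40 genes held 276 peaks, since WNT5B, TWIST1 and TGFB1 then held none. Limiting peaks to protein-coding transcripts left 41 genes and 326 peaks, and limiting them to summits found once in the genome left 40 genes and 319 peaks (both chosen after seeing the data). Merging peaks within 50 nt left 245. The 15 other values came from the following settings. At or above the median height there were 168 peaks, 77.4% of them intronic, with a median height of 30. At or above 2 times the median height, 14 genes held 42 peaks, of which 64.3% were intronic and 21.4% held ACTAAC, the median height was 64.5, and 22.2% of the intronic peaks lay within 250 nt of an exon. The opposite strand held 8 peaks in 5 genes. Near-exon shares were 4.33% at 100 nt and 15.2% at 500 nt. Without WNT5B, TEAD1 and DVL3 (chosen after seeing the data) there were 208 peaks, 87.0% intronic. The ACTAAC share in that setting, 12%, stayed within its interval and is not among the 15. The height filters leave fewer peaks by construction, and the cause of their moved shares was not tested. No interval here covers variation between libraries.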
